A study of Mus musculus with 20 samples.

Results

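Ribosome footprints from the hippocampus of wild-type mice were used to ask which codons ribosomes occupied more or less often than others. The set comprised the 5 wild-type footprint libraries among the 10 footprint libraries and 20 libraries of the study. They were chosen by their genotype and footprint labels, with earlier results of these data known. No library of the Qtrt1 knockout was used. Each library came from a separate mouse: 3 females (wild-type females 1 to 3), aged 6 months and 22, 21 and 21 days, and 2 males (wild-type males 1 and 2), aged 6 months and 18 days and 5 months and 16 days. The animals were untreated as far as the labels say, and their lysates were made with cycloheximide, a drug that blocks elongating ribosomes, in the buffer. All 5 libraries held counts for Qtrt1, from 28 to 94. Sex and age moved together, so they cannot be told apart.

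A ribosome moves along an mRNA by whole codons. An incoming aminoacyl-tRNA enters at the A site, the tRNA that holds the growing chain sits in the P site, and spent tRNAs leave through the E site. A footprint is the stretch of mRNA that the ribosome shields from nuclease. A codon on which ribosomes spend longer is represented by more footprints, while the bases at the ends of a footprint can also affect how well it is recovered. Neurons of the hippocampus translate mRNAs in the cell body and in dendrites, and translation there is needed for lasting memory.

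For each of the 61 sense codons the authors deposited an enrichment ratio at every position from 90 before to 90 after a reference, where 1 means no enrichment. The direction of these positions was read from the occupancy tables, which list footprints by codon. Position 0 is the codon to which a footprint was assigned there, called the occupied codon below. Position 1 is the codon just before it in the mRNA, on its 5′ side, and position −1 is the codon just after it. A profile rebuilt on this reading correlated with the deposited one over 61 codons at position 1 with Pearson r from 0.987 to 0.996 in the 5 libraries. The mirrored reading gave r from −0.34 to −0.14. The tables name no ribosomal site, so none is assigned here.

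The following 6 sites are extreme single sites that hold the highest or lowest codons of position 1, and were chosen after their values were seen. Those of the highest codons are not typical. The mean log2 enrichment of GGA, the highest codon, was 1.75 at position 1. Each line gives 10 codons of coding exon as mRNA, 5′ to 3′, with the codon at position 1 in capitals and the occupied codon directly after it. Sequences and coordinates are from GENCODE M21 on GRCm38.

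Elavl3, chr9:22018677-22018706, minus strand: uggcagcuuuucGGAcccuuuggggcgguc

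Plxna2, chr1:194644174-194644203, plus strand: cuccugcgacuaGAUgaccucuucauccug

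Eif3c, chr7:126552195-126552224, minus strand: cuucuaggucagGGUcugcugcugcgcagc

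Eef2, chr10:81179592-81179621, plus strand: aucgagaagcugGACaucaagcuggacagc

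Cpe, chr8:64619399-64619428, minus strand: gucaaccugaucCACagcacccgaauucau

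Cpe, chr8:64619510-64619539, minus strand: gaauuuaaauacAUUgggaacaugcauggu

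The first 4 hold the codons that were highest at position 1. For each codon, the site shown is the candidate at which the lowest library was furthest above its mRNA's mean. Candidates had at least 10 footprints in every library, in mRNAs with at least 0.5 per codon, and no exon junction in the sequence shown. Not every chromosome was searched. The Cpe sites hold the lowest codons, and were sites without a footprint in the mRNA with the most footprints per codon among those with such a site. In Elavl3, which encodes a neuronal RNA-binding protein, the proline codon after GGA carried between 98 footprints (wild-type female 2) and 428 (wild-type male 1). That was 130.7 to 145.9 times the mean per codon of that mRNA over the 5 libraries. In Eef2, which encodes the factor that moves the ribosome forward, the isoleucine codon after GAC carried 158.3 to 205.1 times the mean. The Plxna2 site, in the mRNA of a semaphorin receptor, carried 116.98 to 300.2 times the mean, and the Eif3c site, in the mRNA of an initiation factor subunit, 100.9 to 146.2 times. In Cpe, the mRNA of a peptide-hormone processing enzyme, the codons after CAC and AUU carried 0 footprints in all 5 libraries against a mean of 37.1 to 107.96 per codon. A count of 0 allows up to 3 counts, so the relative occupancy could have reached 0.0278 in the deepest library and 0.0808 in the shallowest.

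The spread between codons stood out over a short window. The SD of log2 enrichment over 61 codons, averaged over libraries, was 0.88 at position 1, 0.59 at position 0, 0.51 at positions −1 and 5, 0.48 at −3, 0.47 at 2 and 3, 0.42 at −4, 0.36 at −2 and 4, and 0.22 at 6. At the 120 positions at least 31 codons away, called far positions here, it had a median of 0.16 and did not exceed 0.21. The run of positions above that limit went from −4 to 6, which is 11 codons or 33 bases. Outside that run, position −14 also lay above it, at 0.22, with females between 0.16 and 0.19 and males at 0.26 and 0.32. At position 1 the SD was 0.91, 0.95 and 0.81 in females and 0.71 and 1.02 in males, so the 2 males bracketed the females.

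**Figure D1:**
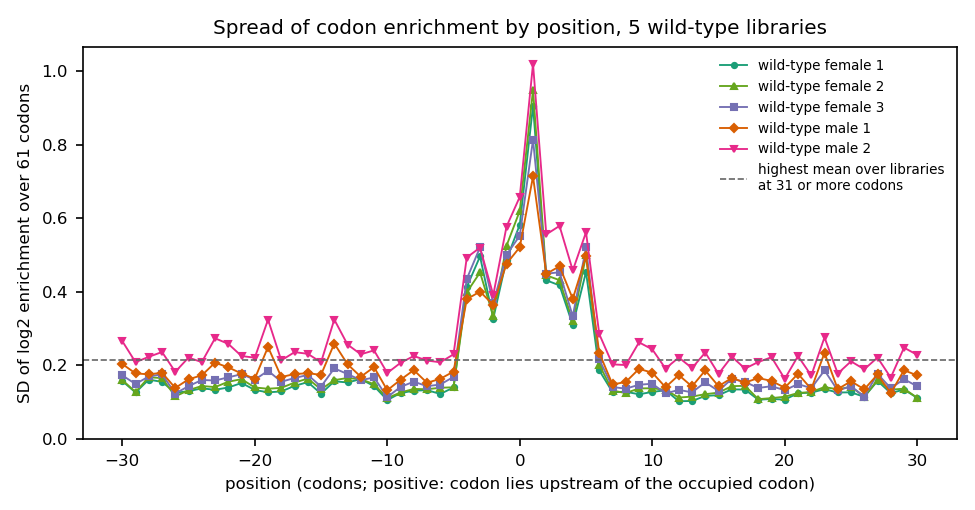
SD of log2 enrichment over 61 sense codons (vertical axis) at each position within 30 codons (horizontal axis), 1 line per wild-type library. The dashed line is the highest mean over libraries at positions at least 31 codons away (0.21), and the peak at position 1 lies between 0.71 and 1.02.

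Each codon was tested against a ratio of 1 with limma on log2 enrichment over the 5 libraries, with p-values adjusted over the 61 codons by Benjamini-Hochberg and a call below 0.05. At position 1, 91.8% of codons were called (56 of 61), 37.7% higher (23) and 54.1% lower (33). The same test called 64.4% of codons at far positions, so a call alone does not set a near position apart, and sizes are given throughout. Codons that were called and also differed by over 1.5-fold made up 55.7% at position 1 (34 of 61), 39.3% at position 0 (24), 19.7% at position 2 (12) and 24.6% at position 3 (15), against 0.273% at far positions. The median of the 61 codons was −0.40 at position 1 and −0.25 at position 0 on the log2 scale, so a codon with a ratio of 1 lay above the middle of the codons.

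At position 1, ribosomes were found most often just after glycine and aspartate codons. The glycine codon GGA had enrichment ratios of 3.23, 3.39 and 3.05 in females and 3.14 and 4.04 in males, and was first of 61 in every library. Its mean log2 enrichment was 1.75 ± 0.16 (SD, n = 5; limma standard error 0.06, adjusted p = 1.38e-06). The aspartate codon GAU had ratios of 3.08, 3.19, 2.81, 2.59 and 2.49 in the same order and was second in every library (mean log2 1.5 ± 0.15, adjusted p = 1.83e-06). The lowest GGA value (3.05) lay below the highest GAU value (3.19), although the order held inside each library. The glycine codon GGU (1.17 ± 0.11) and the aspartate codon GAC (1.15 ± 0.08) shared ranks 3 and 4 and did not differ beyond their spread. The cysteine codon UGU (0.98 ± 0.05), the glycine codons GGG (0.88 ± 0.15) and GGC (0.84 ± 0.15) and the asparagine codon AAU (0.79 ± 0.14) followed, at ranks 5 to 10 depending on the library.

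The lowest codons at position 1 were those of histidine, isoleucine, lysine and leucine. The histidine codon CAC had ratios of 0.258, 0.248 and 0.303 in females and 0.357 and 0.200 in males and was last in every library (mean log2 −1.90 ± 0.32, SD, n = 5; limma adjusted p = 8.10e-06). The isoleucine codon AUU had ratios of 0.268, 0.249, 0.323, 0.406 and 0.206 (−1.82 ± 0.37). Then came AUC (−1.73 ± 0.38), the lysine codons AAA (−1.62 ± 0.43) and AAG (−1.59 ± 0.40), the leucine codons UUA (−1.51 ± 0.29) and CUA (−1.47 ± 0.30), and the isoleucine codon AUA (−1.44 ± 0.27). These neighbours overlapped in every step of the order. In wild-type male 1 each of them was closest to 1, and in wild-type male 2 furthest from it.

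The mean over synonymous codons put aspartate first (1.32 ± 0.05, SD, n = 5; limma adjusted p over 20 amino acids = 1.17e-07) and glycine second (1.16 ± 0.13, adjusted p = 7.03e-06). In wild-type male 2 the order was reversed, with glycine at 1.32 and aspartate at 1.29. Asparagine (0.41 ± 0.08), cysteine (0.39 ± 0.03), glutamate (0.19 ± 0.08), tryptophan (0.17 ± 0.03), alanine (0.14 ± 0.13) and valine (0.13 ± 0.07) were also called higher. The SD is between libraries and not between codons. Codons lay on both sides of 0 for cysteine (−0.19 to 0.98), glutamate (−0.06 to 0.43), alanine (−0.54 to 0.47) and valine (−0.03 to 0.31). Alanine was below 0 in wild-type male 1 (−0.03), and its call was lost with the sexes weighted equally (limma adjusted p = 0.0712), with codons weighted by how often they were listed (0.136) and without any 1 of the other 4 libraries (0.0528 to 0.104). Together 95% of amino acids were called at this position (19 of 20), 40% higher (8) and 55% lower (11). With each library's median over codons removed, 12 were higher and 7 lower. At the other end stood isoleucine (−1.66 ± 0.34), lysine (−1.60 ± 0.41), histidine (−1.33 ± 0.25), leucine (−1.21 ± 0.30), methionine (−1.10 ± 0.14), serine (−0.75 ± 0.13) and proline (−0.44 ± 0.07). Arginine (−0.30), threonine (−0.20), glutamine (−0.15) and phenylalanine (−0.14) were called lower against a ratio of 1, yet lay above 0 once that median was removed. Tyrosine (−0.05 ± 0.04, limma adjusted p = 0.0894) was not called, and its call depended on the scale. It was lower with codons weighted by listing (−0.19, adjusted p = 0.00105) or far positions subtracted (−0.08, 0.0116), and higher on the linear scale (0.09, adjusted p = 0.00083) or with the library median removed (0.26, 8.61e-05).

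By chemical class, all 4 glycine codons were called higher at position 1, with a class median of 1.03 against −0.40 over all codons, of which 37.7% were higher and 54.1% lower. Of the 4 acidic codons 3 were called higher and 0 lower (class median 0.79). Of the 18 aliphatic codons 6 were higher and 11 lower (median −0.97), counts near the share over all codons, and the codons of alanine (−0.54 to 0.47) and valine (−0.03 to 0.31) all lay above those of leucine (−1.51 to −0.89), isoleucine and methionine. Of the 8 basic codons 2 were higher and 6 lower (median −0.62). The 10 hydroxyl codons, of serine and threonine, counted 2 higher and 7 lower (median −0.65). Identity of the amino acid held 78.3% ± 4.3 (SD, n = 5) of the sum of squares over codons in a library. At far positions this share had a median of 29.9% and reached 56.0%. The first base of the codon held 36.3% ± 1.9, with codons that start with G at 0.55 and those that start with A at −0.79. All codons of glycine, aspartate, glutamate, alanine and valine start with G, so base and amino acid overlap.

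At position 0, the occupied codon itself, aspartate again led, but glycine did not. Of 61 codons 88.5% were called (54), 27.9% higher (17) and 60.7% lower (37). With each library's median removed, 24 were higher and 24 lower. The aspartate codon GAC had ratios of 2.18, 2.29 and 2.07 in females and 1.97 and 2.43 in males and was first in every library (mean log2 1.13 ± 0.12, SD, n = 5; limma adjusted p = 3.33e-07). Below it lay GGA (0.88 ± 0.16), the glutamate codon GAA (0.78 ± 0.08), GAU (0.74 ± 0.11), the arginine codon CGA (0.74 ± 0.16) and the 3 isoleucine codons AUU (0.74 ± 0.08), AUC (0.61 ± 0.05) and AUA (0.58 ± 0.11). The codons after GAC overlapped one another, with ranks from 2 to 10, and the highest GGA value (2.09) exceeded the lowest GAC value (1.97).

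The lysine codon AAA was lowest at position 0, with ratios of 0.445, 0.393 and 0.460 in females and 0.445 and 0.284 in males (−1.32 ± 0.29). The phenylalanine codon UUU (−1.27 ± 0.27) took the last rank in some libraries. The serine codons AGC (−1.09 ± 0.07) and AGU (−1.01 ± 0.11), the glutamine codon CAA (−1.05 ± 0.24), the alanine codon GCG (−1.01 ± 0.13), the histidine codon CAU (−0.97 ± 0.10) and the phenylalanine codon UUC (−0.89 ± 0.21) completed the lowest 8. Over amino acids 80% were called (16 of 20), 20% higher (4) and 60% lower (12), but 8 were higher and 8 lower with each library's median removed. The 4 higher were aspartate (0.93 ± 0.09), isoleucine (0.64 ± 0.05), glutamate (0.59 ± 0.09) and tryptophan (0.47 ± 0.08). Phenylalanine (−1.08 ± 0.21), glutamine (−0.90 ± 0.15), histidine (−0.80 ± 0.05), tyrosine (−0.56 ± 0.08) and lysine (−0.55 ± 0.19) were the lowest. Leucine (−0.26 ± 0.10) was called lower but lay at 0.0037 with that median removed, and methionine, threonine and valine then also lost their lower call (adjusted p from 0.0653 to 0.872). Proline (0.06), glycine (0.03), arginine (−0.05) and asparagine (−0.05) were not called (limma adjusted p from 0.109 to 0.306). With the median removed all 4 were called higher, between 0.21 and 0.32 (adjusted p from 1.01e-05 to 7e-05). Glycine and proline were also called higher on the linear scale (adjusted p = 0.0021 and 0.0246) and with codons weighted by listing (0.000608 and 0.00425). With far positions subtracted, proline was called higher (0.0323) and asparagine lower (0.00903).

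**Figure D2:**
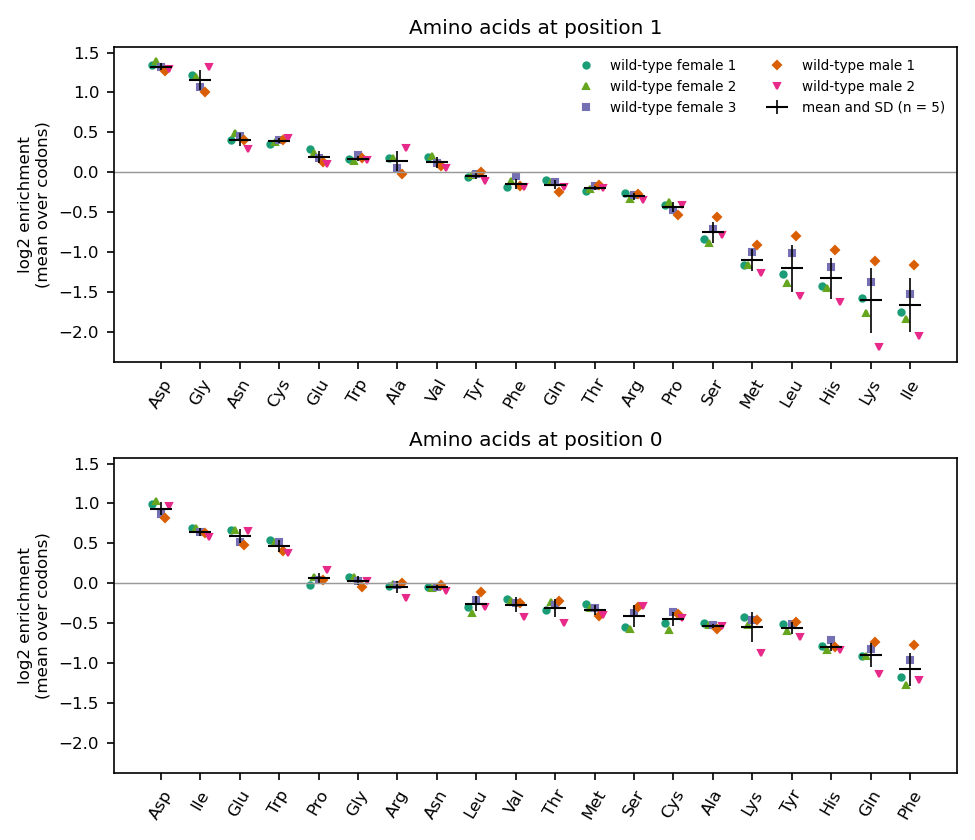
Mean log2 enrichment over the synonymous codons of each amino acid (vertical axis) at position 1 (top) and position 0 (bottom), 1 marker per wild-type library, with the mean and SD (n = 5) in black. By the mean, aspartate is highest at both positions (1.32 and 0.93), while isoleucine is lowest at position 1 (−1.66) and second at position 0 (0.64).

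Isoleucine showed the widest move between these adjacent positions. The difference between position 1 and position 0, taken within each library, was called for 93.4% of codons by limma (57 of 61), 41% higher at position 1 (25) and 52.5% lower (32). For AUU it was −2.71, −2.79 and −2.37 in females and −2.02 and −2.90 in males (mean −2.56 ± 0.36, adjusted p = 3.11e-06). AUC (−2.35 ± 0.41), AUA (−2.02 ± 0.27) and the lysine codon AAG (−1.81 ± 0.36) likewise lay lower at position 1. GGU moved the opposite way by 2.00 ± 0.13, and the phenylalanine codon UUU by 1.39 ± 0.28. GAC had the same level at both positions within its spread (difference 0.02 ± 0.11, limma adjusted p = 0.654). Over 61 codons the library means at positions 1 and 0 correlated weakly (Pearson r = 0.25, a description over codons that share libraries).

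Inside an amino acid, codons ending in U stood above those ending in C at position 1. Among the 29 synonymous pairs that differ only in the third base, 75.9% were called by limma (22), 20.7% higher (6) and 55.2% lower (16) for C against U or G against A. Of the 16 C/U pairs, 13 were lower for the codon ending in C, 0 were higher and 3 were not called, with a median difference of −0.79. The widest was tyrosine, where UAC minus UAU was −1.40 ± 0.12 (SD, n = 5; adjusted p = 9.56e-10). UAU had ratios from 1.53 to 1.63 and UAC from 0.547 to 0.650, with no overlap. The serine pair UCC and UCU (−1.32 ± 0.07), the arginine pair CGC and CGU (−1.28 ± 0.05), the cysteine pair UGC and UGU (−1.17 ± 0.13), the proline pair CCC and CCU (−1.15 ± 0.07) and the histidine pair CAC and CAU (−1.14 ± 0.15) came next. The 3 pairs not called were those of isoleucine (0.09), leucine (0.05) and valine (−0.05), all with U as the second base. The phenylalanine pair, which also has U there, was called at −0.52.

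The direction held in each class of C/U pair by the tRNA that reads it. In the 4 amino acids whose tRNAs carry queuosine, a modified guanosine at the first anticodon base, all 4 pairs were lower for C (median −0.95). In the other 4 pairs read by a tRNA with guanosine there, all 4 were lower (median −0.53). In the 8 pairs read through inosine, 5 were lower, 0 higher and 3 not called (median −0.91). No difference between these classes was tested.

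At position 0 the C/U pairs went in both directions, with 6 higher for C, 7 lower and 3 not called, and a median difference of −0.0045. Over all pairs 86.2% were called (25 of 29), 41.4% higher (12) and 44.8% lower (13). Aspartate (0.38), asparagine (0.41) and histidine (0.36) had the C codon higher at position 0 and lower at position 1, while tyrosine (−0.12) had it lower at both. The glycine pair GGC and GGU went from −0.34 at position 1 to 0.60 at position 0. The 13 pairs ending in G or A gave 6 higher for G, 6 lower and 1 not called at position 0, and 6, 3 and 4 at position 1. Lysine had the widest difference of all at position 0, where AAG stood above AAA by 1.54 ± 0.22 (limma adjusted p = 1.12e-10), although at position 1 they differed by 0.04 (adjusted p = 0.465). The arginine pair CGG and CGA (−0.93 ± 0.16), the alanine pair GCC and GCU (−0.73 ± 0.06), the serine pair UCC and UCU (−0.66 ± 0.15), GGC and GGU and the leucine pair CUG and CUA (0.60 ± 0.07) were next in size.

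**Figure D3:**
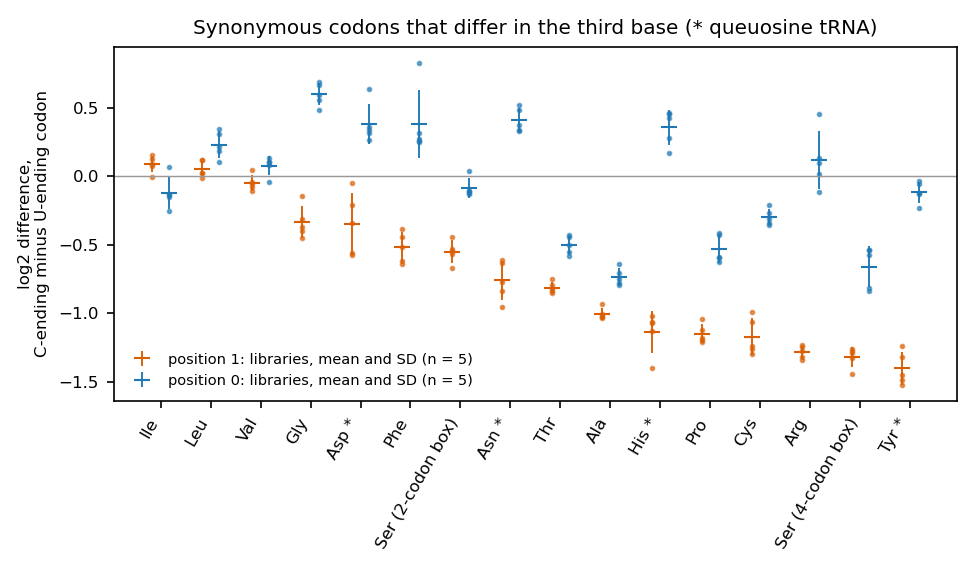
Log2 difference between the codon ending in C and its synonym ending in U (vertical axis) for 16 pairs, at position 1 (orange) and position 0 (blue), with points for the 5 libraries and a bar for mean and SD. At position 1 the means run from −1.40 (tyrosine) to 0.09 (isoleucine), and at position 0 they lie on both sides of 0.

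The 8 codons read by queuosine tRNAs did not form a block. At position 1 they spanned nearly the whole range, from GAU (second highest) and GAC, AAU and UAU (0.65 ± 0.03, ninth in every library) through AAC (0.03, not called, adjusted p = 0.445), UAC (−0.75 ± 0.10) and CAU (−0.76 ± 0.20) to CAC, the lowest of all. With the library median removed, AAC was called higher (0.33, adjusted p = 8.69e-05). Of the 8, 4 were called higher and 3 lower, against 37.7% and 54.1% of all codons, with a median of 0.34 against −0.40. At position 0 GAC, GAU and AAC (0.15 ± 0.04) were called higher and 5 lower, against 27.9% and 60.7% of all codons. Among the lower was AAU (−0.26 ± 0.06), which lay at 0.0021 with each library's median removed.

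At position 2, a codon further back, leucine codons were high. UUG had ratios of 1.87, 1.91 and 1.93 in females and 1.81 and 2.05 in males (0.93 ± 0.07, limma adjusted p = 6.29e-08). CUG (0.92 ± 0.10), the serine codon UCU (0.91 ± 0.13) and the threonine codon ACU (0.91 ± 0.04) overlapped it. The alanine codon GCC was last in every library, with ratios of 0.459 to 0.493 (−1.08 ± 0.04, adjusted p = 2.18e-08), followed by the serine codon AGC (−0.82), GGU (−0.75) and the arginine codon CGC (−0.67). Called codons made up 82% (50 of 61), 29.5% higher (18) and 52.5% lower (32), and 28 were higher and 24 lower with each library's median removed. Over amino acids leucine was highest (0.53 ± 0.09) and glycine lowest (−0.57 ± 0.08), and 70% were called (14 of 20), 25% higher (5) and 45% lower (9). With the median removed 10 were higher and 4 lower, and valine (−0.14), among the lower before, lay at 0.000394. Glycine thus passed from the second highest amino acid at position 1 to the lowest at position 2.

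At position 3, UCU (0.77 ± 0.22), UCG (0.72 ± 0.08), CUG (0.71 ± 0.08) and AUC (0.70 ± 0.05) were highest. The glutamate codon GAG (−0.87 ± 0.17), GGG (−0.87 ± 0.21), the alanine codon GCA (−0.78 ± 0.06) and the proline codon CCC (−0.71 ± 0.11) were lowest. Calls covered 80.3% of codons (49), 34.4% higher (21) and 45.9% lower (28), and 75% of amino acids (15 of 20), 35% higher (7) and 40% lower (8). Cysteine (0.50 ± 0.08) and leucine (0.42 ± 0.03) led the amino acids, and glutamate (−0.70 ± 0.07), glutamine (−0.64 ± 0.09), lysine (−0.60 ± 0.21) and histidine (−0.53 ± 0.05) were at the bottom.

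**Figure D4:**
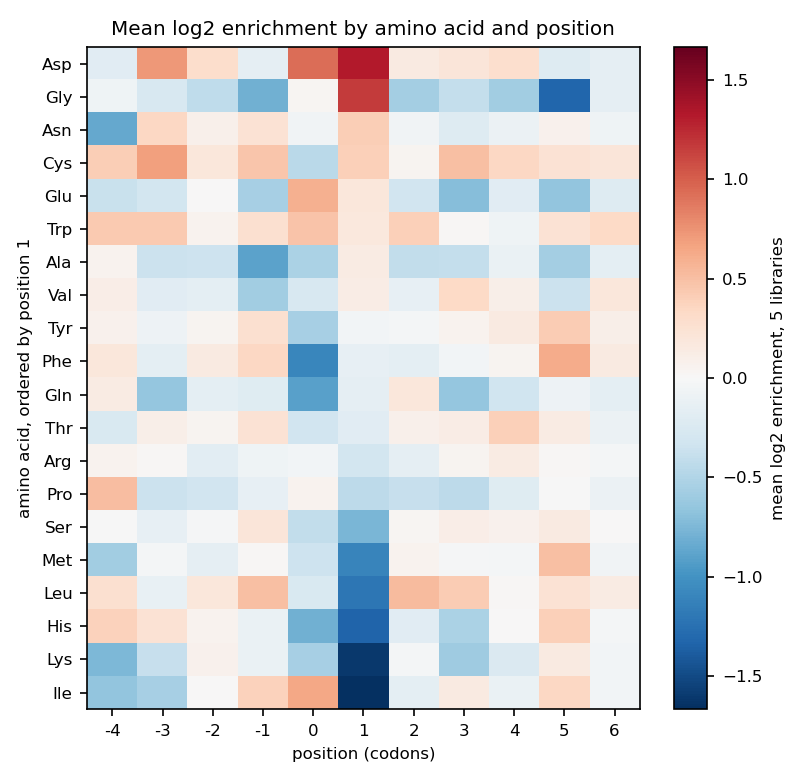
Mean log2 enrichment of each amino acid (rows, ordered by position 1) at positions −4 to 6 (columns), averaged over 5 wild-type libraries, with red above and blue below 0. Glycine is at 1.16 at position 1 and −1.32 at position 5, and isoleucine goes from −1.66 at position 1 to 0.64 at position 0.

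At positions −4, −3, −1 and 5, a single base of the codon held between 40.8% and 73.4% of the sum of squares. The amino acid held 70.3%, 46.3%, 72.3% and 83.7% there in the same order, so base and amino acid overlap at these positions too. At −2, 4 and 6 no base held more than 10.8%, 10.1% and 19.5%. At far positions the share of a single base reached up to 20.6%. That of the amino acid reached up to 56.0% there, above its 46.3% at position −3. Limma called 85.2% of codons at position −4, 83.6% at −3, 85.2% at −2, 83.6% at −1, 68.9% at 4, 73.8% at 5 and 75.4% at 6. With a difference over 1.5-fold as well, these shares were 18%, 21.3%, 11.5%, 21.3%, 9.84%, 16.4% and 0%. At position 5 the first base of the codon held 59.5% ± 2.8 (SD, n = 5) of the sum of squares, and codons that start with G averaged −0.67. All 4 glycine codons filled the lowest ranks there, between 58 and 61 in every library, down to GGA with ratios of 0.433, 0.369 and 0.340 in females and 0.374 and 0.308 in males (−1.46 ± 0.18). GGA was therefore the highest codon at position 1 and the lowest at position 5. The phenylalanine codon UUC was the highest at position 5 (0.72 ± 0.21). At position −4 the first base held 73.4% ± 13, with codons that start with A at −0.56 and those that start with C at 0.37. The asparagine codon AAU was lowest (−0.86 ± 0.14) and the proline codon CCU highest (0.69 ± 0.33). CCU ranged from 1.32 in wild-type female 1 to 2.33 in wild-type male 2. At position −3 it was the third base that weighed most, at 40.8% ± 14.1, and codons ending in A averaged −0.62. The isoleucine codon AUA (−1.15 ± 0.23) was lowest and UGU (0.96 ± 0.33) highest.

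At position −1, the codon just after the occupied one, the first base held 54.8% ± 4.0 and codons that start with G averaged −0.65. GGG had ratios of 0.502, 0.427 and 0.432 in females and 0.447 and 0.379 in males (−1.20 ± 0.15). The serine codon UCU was first in every library, with ratios of 1.89 to 2.08 (0.99 ± 0.06). At position −2 it was again UCU that was highest (0.66 ± 0.11) and GCC lowest (−0.75 ± 0.07). ACU led at position 4 (0.69 ± 0.04), where GGG was lowest (−0.84 ± 0.12). Single bases held at most 6.38% of the sum of squares at position 0, where the amino acid held 58.5% ± 5.3. Their backgrounds were unlike, since far positions reached 20.6% for a single base and 56.0% for the amino acid. The share at position 0 was thus near the highest far value.

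Positions 1 and 0 were also read together from the occupancy tables, by the mean relative occupancy of each of 400 ordered amino acid pairs in transcripts with at least 0.5 footprints per codon. These tables gave the same sign as the deposited enrichment for 60 of 61 codons at position 1 and 56 at position 0. Aspartate followed by isoleucine was the most occupied pair, at 4.85, 4.82 and 4.43 times the mean in females and 3.96 and 4.17 times in males, with at least 7738 footprints on 995 sites. Aspartate then tryptophan (3.62 to 4.90), glycine then isoleucine (3.71 to 4.27), aspartate then aspartate (3.60 to 4.34) and proline then aspartate (3.06 to 4.16) came next, and their ranges overlapped. Lysine then histidine was least occupied, at 0.152, 0.147, 0.178, 0.185 and 0.0878, from as few as 72 footprints on 410 sites.

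The separate contributions of the 2 amino acids held most of the variance of the 400 pair values. The amino acid at position 1 accounted for 59.3%, that at position 0 for 25.5%, and the remaining 15.2% lay outside their sum. Across libraries the pair values correlated with Pearson r from 0.946 to 0.990. Several pairs departed from the sum on the same side in all 5 libraries. Phenylalanine then glycine exceeded it by 1.45 ± 0.18 on the log2 scale, proline then aspartate by 1.39 ± 0.11 and proline then glycine by 1.21 ± 0.16. Tryptophan then cysteine fell short (−1.27 ± 0.13, as few as 34 footprints), as did glutamate then glutamate (−1.13 ± 0.18) and proline then proline (−1.12 ± 0.23). Proline at position 1 thus ranged from a mean log2 occupancy of 1.83 before aspartate to −1.55 before a second proline.

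**Figure D5:**
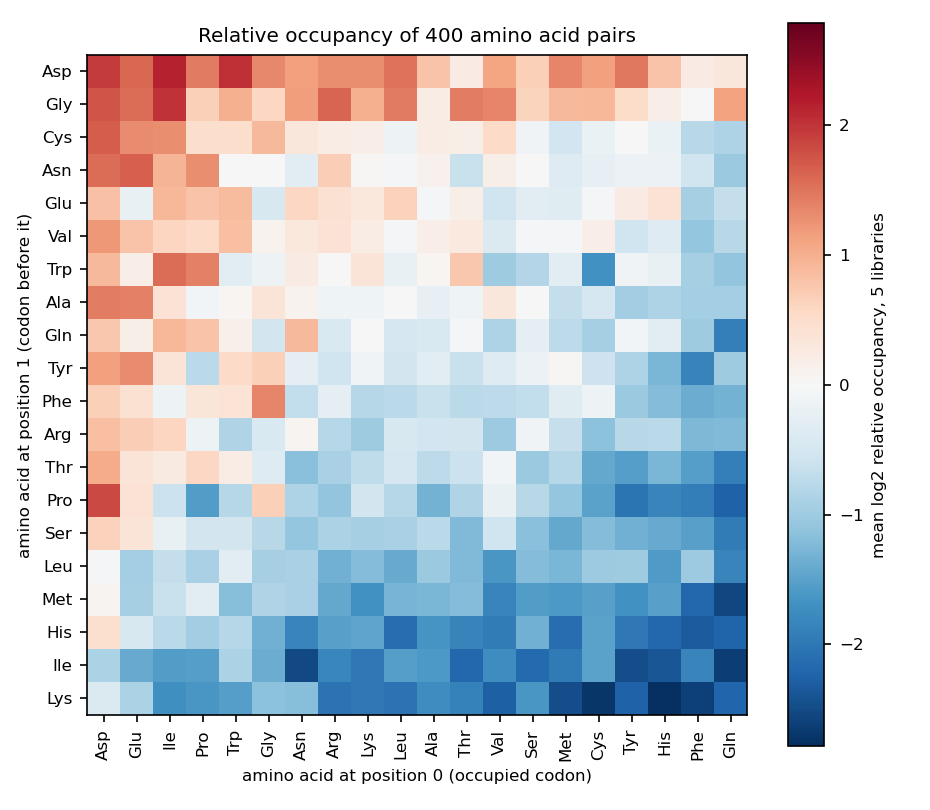
Mean log2 relative occupancy, over 5 wild-type libraries, of 400 amino acid pairs, with the amino acid at position 1 in rows and at position 0 in columns, both ordered by their means. The row of aspartate is the reddest, up to 2.15 with isoleucine at position 0, and lysine before histidine is the lowest cell (−2.78).

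The libraries repeated the landscape closely where codons spread most. Over the 10 pairs of libraries, Pearson r across 61 codons at position 1 ran from 0.957 (wild-type males 1 and 2) to 0.997 (wild-type females 1 and 2), with a median of 0.982. At position 0 it ran from 0.913 to 0.993, with a median of 0.949. At far positions the median over library pairs was 0.823 at the middle position and ranged from 0.598 to 0.904 over positions, so libraries shared small codon-specific deviations there too. These correlations are descriptions over codons. The libraries differed in the size of the pattern more than in its order: a slope of each library on the mean of the others at position 1 was 0.76 for wild-type male 1 and 1.19 for wild-type male 2, with females at 1.04, 1.10 and 0.91. Wild-type male 1 was the deepest library (15517982 gene counts) and wild-type male 2 the shallowest (5357812), with females between 5864164 and 7347326. The part of depth in the slope was not tested.

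Females and males were compared with limma (3 against 2), and 0 of 61 codons (0%) were called at position 1 and 0 (0%) at position 0. At an unadjusted p under 0.05 there were 10 and 8. Largest at position 0 were the serine codons UCU (female minus male −0.55 ± 0.15, standard error) and UCC (−0.50 ± 0.12), both at adjusted p = 0.172. UCU had ratios of 1.07, 1.07 and 1.5 in females and 1.73 and 1.78 in males. With 1 male left out the male arm is a single library, assumed in the fit to vary as the females did. On that assumption, without wild-type male 1 there were 6 calls at position 1, all higher in females, and 8 at position 0, 7 of them higher in females, and without wild-type male 2 there were 14 at position 1, all lower in females, and 0 at position 0. At far positions the same comparison called a median of 13 codons, from 0 to 26.

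The composition of the dissected tissue also differed between libraries. All 8 hippocampal neuron markers were detected in every library, with a mean log2(CPM + 1) of 6.32 to 6.98. The 6 markers of choroid plexus, the secretory epithelium of the ventricles, averaged 2.99 and 3.60 in wild-type females 1 and 2, 6.44 in female 3 and 7.10 and 7.26 in males, and the 6 striatal markers 4.38 to 5.91 in females and 3.24 and 3.76 in males. The 2 females with the least choroid plexus signal were also the pair with the highest r at position 1, and the part of tissue composition in any codon value was not tested.

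Each sense codon was observed many times. The occupancy tables listed 173873 to 334021 codons with 1071976 to 3032432 footprints per library, from 7126 to 8774 transcripts, and 39.3% to 47.8% of listed codons carried 1 footprint. The rarest codon in the transcripts used, CGU, occurred 1849 to 4268 times, and UUA had the fewest footprints, 1668 to 9133. Over 61 codons, log occurrence and log2 enrichment correlated at r from 0.018 to 0.061 at position 1 and from 0.16 to 0.26 at position 0. The mean single-codon occupancy over listed codons alone, which leaves out every codon without a footprint, correlated with position 0 at r from 0.532 to 0.662.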

How the data were processed

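Hippocampal ribosome footprints of 5 wild-type mice were analysed, and the members, lists and positions were chosen with earlier results of these data known. The authors deposited mean enrichment as a ratio per codon and position and called it unbiased per the file names; how it was corrected was not stated. The authors' occupancy tables hold footprint counts per codon of a transcript, and how much of a coding sequence was covered in percent, per the file headers. Raw counts per gene, deposited by the authors, served for depth and markers, and 15 columns of other libraries were not used. The submitters' processing notes name cutadapt 1.8.1, Trimmomatic 0.39, Bowtie 1.0.0 and 1.2.2 and SAMtools 0.1.19. Neither genome build nor footprint lengths were given in the sources used here.

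Ratios were log2-transformed and tested with limma 3.58.1 in R 4.3.3 (intercept only, or sex), with Benjamini-Hochberg adjustment within each position. The test was also run on simulated codons that were independent and had a common spread. Codons here differed in spread, so that run cannot vouch for the calls. Labels name 1 animal per library. Occupancy was re-averaged in Python 3.11.15 over transcripts with at least 0.5 footprints per codon, using GENCODE M21 coding sequences, with codons not listed set to 0. Pair values, base shares and example sites were added after seeing the data. Codons were named by rank: the 8 highest and lowest at positions 1 and 0, the 4 at positions 2 and 3, the extreme codons elsewhere, the 6 widest pairs and shifts, and the queuosine codons. Other settings were the linear ratio, the library median removed, far positions subtracted, a variance trend, sexes weighted equally, a replicate block and each library left out. Molecular identifiers are not mentioned, so counting limits cover counting error only.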

Additional observations from a re-analysis of the deposited data

Results flagged for a closer look

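In 52 checks for a library far from the other 4, of which chance alone flags about 1 in 20, 2 values stood out. The SD over codons at position 2 was 0.56 in wild-type male 2, against 0.43 to 0.45 in the other libraries. The log2 enrichment of the histidine codon CAC at position 0 was −0.72 in wild-type male 1, against −0.61 to −0.58 in the others.

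The deposited tables also hold values for UGA, which the comparisons of sense codons do not use. UGA is a stop codon, and inside a few coding sequences it encodes selenocysteine. Its mean enrichment ratio was 4.34 at position −3, 6.36 at −2, 2.34 at −1, 2.34 at position 0 and 3.29 at position 1. The range over libraries at −2 was 3.90 to 11.5. At position 0 the ratio was 0.534 in wild-type male 2, below 1, and 2.15 to 3.39 in the other libraries. Recomputed from the occupancy tables, these positions rested on 3 to 6 transcripts per library with 17 to 24 in-frame UGA codons. The recomputed values did not match the deposited ones in every library. In wild-type male 2 at −3, for example, 3.01 was recomputed against 5.05 deposited. At the 120 far positions the mean UGA ratio had a median of 0.305 and ran from 0 to 8.74.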

How the results depend on the processing

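Of the alternatives for the comparisons as a whole, 150 values stayed close to the main value and 7 moved, 6 of which concern the sexes. A number of calls was taken as close if it changed by at most 1.5-fold, whatever the direction or the members called. The split into higher and lower calls could therefore shift among these values, as it did with the library median removed. Female against male calls at position 0 numbered 2 with the library median removed, and 4 with the replicate block, the label number beside sex, against 0 at position 1 with that block; the labels do not say that numbers pair animals, so this only describes the fit. Leaving out 1 library gave from 0 to 14 sex calls at position 1 and from 0 to 8 at position 0. The mean correlation of listed occupancy with position 0 was 0.611 and rose to 0.932 in transcripts in the upper part by covered share. The cause was not tested.

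For the named codons, pairs and amino acids, 1548 of 1610 alternative values kept direction and call, 18 lost the call, 23 gained it and 21 changed sign. With the library median removed, values turned positive at position 0 for AAU (0.0021), arginine (0.21), asparagine (0.21) and leucine (0.0037), at position 1 for arginine (0.0027), glutamine (0.15), phenylalanine (0.16), threonine (0.11) and tyrosine (0.26), at position 2 for asparagine (0.088), lysine (0.11), tyrosine (0.10) and valine (0.000394), and at position 3 for methionine (0.065) and phenylalanine (0.039). On the linear scale (ratio minus 1) tyrosine at position 1 was at 0.085 and arginine at position 0 at 0.0066, and lysine at position 2 was at 0.0038 with far positions subtracted. Leaving out 1 library gave lysine −0.064 to 0.045 at position 2, and methionine −0.045 to 0.012 and tryptophan −0.0034 to 0.044 at position 3, in each case turning without wild-type male 2.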
